A study of Mus musculus with 13 samples.

Results

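The collagen genes of the aorta were examined in RNA sequencing data from AngII-infused ApoE -/- mice given adenovirus with or without mouse Fam3a. Members were all genes of the count table annotated as protein coding whose symbol is Col, a number, a and a second number. This rule found 44 of the 54532 genes listed, and no measured value entered it. By the kind of assembly that their chains form, 11 are fibrillar, 6 are basement membrane chains, 6 are beaded filament chains and 21 are of other types. A filter on low counts kept 36 of the 44, of which 10 were fibrillar, 6 basement membrane, 6 beaded filament and 14 other.

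All 13 mice lacked ApoE, were 10 weeks old at the start and received AngII at 1000 ng/kg/min for 28 days from a subcutaneous pump. Each received 5 tail vein injections of adenovirus. In the Ad-FAM3A group (7 aortas) the vector carried mouse Fam3a with a FLAG tag and an mCherry reporter, and in the Ad-sham group (6 aortas) it was the same vector without Fam3a. The study's methods name both an EF1A promoter construct and a CMV Gateway vector, and do not say which promoter drove Fam3a in the virus injected. Aortas without AngII or without virus were not analysed here, and each library was made from the RNA of aortic tissue. The study's methods state that whole aortas were taken out at the end of the infusion, and name only aortic tissue as the source of the RNA.

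Collagens are proteins of the extracellular matrix in which 3 chains wind into a triple helix. Types I, III and V form the fibrils that carry tensile load in the adventitia and media, type IV forms the sheet-like network of the basement membrane under endothelium and around each smooth muscle cell, and type VI forms beaded microfilaments that link cells to the fibrils. The remaining types decorate fibrils, form short networks, span the cell membrane or anchor basement membranes. Smooth muscle cells and fibroblasts are the main known producers of collagen in the vessel wall.

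Of the 6 type IV chains, each lies next to a partner chain that is transcribed in the opposite direction, and these starts are shown because the partners are compared below. On GRCm38, Col4a1 and Col4a2 overlapped by 22 bases at their annotated starts on chromosome 8. Col4a4 and Col4a3 were separated by 71 bases on chromosome 1, and Col4a6 and Col4a5 by 1308 bases on the X chromosome. The stretches below are from RefSeq on GRCm38.p6, and capitals mark matches on either strand to the letters TATAAA of the TATA box, the letters CCAAT of the CCAAT box and the letters GGGCGG of the GC box. The overlap of the Col4a1 and Col4a2 starts was chr8:11312805-11312826 (plus strand, exonic in both genes), and the gap between Col4a4 and Col4a3 was chr1:82586850-82586920 (minus strand, no annotated exon). The bases before the start of Col4a6 were chrX:141474077-141474326 (minus strand, 250 bases), and those before the start of Col4a5 were chrX:141475169-141475384 (plus strand, 216 bases), neither of which held an annotated exon. The Col4a5 stretch ends at the annotated gene start, and the RefSeq start used for the promoter counts lies further downstream. A GGGCGG match beginning 30 bases before that RefSeq start is not in the stretch shown.
Col4a1 and Col4a2 overlap: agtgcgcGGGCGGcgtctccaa
Col4a4 and Col4a3 gap: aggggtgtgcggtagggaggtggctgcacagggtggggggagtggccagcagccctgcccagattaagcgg
Col4a6 upstream: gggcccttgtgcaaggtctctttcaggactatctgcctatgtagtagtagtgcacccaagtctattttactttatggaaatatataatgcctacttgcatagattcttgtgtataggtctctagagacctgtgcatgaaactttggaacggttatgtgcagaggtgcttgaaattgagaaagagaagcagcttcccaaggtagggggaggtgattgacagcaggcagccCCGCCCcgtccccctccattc
Col4a5 upstream: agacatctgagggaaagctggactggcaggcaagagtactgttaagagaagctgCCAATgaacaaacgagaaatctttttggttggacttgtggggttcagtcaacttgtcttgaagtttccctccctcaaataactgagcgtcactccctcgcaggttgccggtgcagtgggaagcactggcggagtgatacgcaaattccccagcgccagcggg

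A further upstream stretch is shown for Col3a1, one of the most abundant collagen transcripts here, at chr1:45311288-45311537 (plus strand).
Col3a1 upstream: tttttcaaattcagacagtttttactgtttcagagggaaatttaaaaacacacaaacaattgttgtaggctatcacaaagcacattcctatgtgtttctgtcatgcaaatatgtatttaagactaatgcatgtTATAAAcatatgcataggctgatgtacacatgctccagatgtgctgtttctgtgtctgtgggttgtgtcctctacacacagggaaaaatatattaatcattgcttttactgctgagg
The Col3a1 stretch held TATAAA beginning 117 bases before the start, and it held no CG dinucleotide. The first of the stretches above was 72.7% G or C, the Col4a4 and Col4a3 gap 69.0%, the Col4a6 stretch 47.6%, the Col4a5 stretch 52.3% and the Col3a1 stretch 35.2%. RefSeq gave 38 promoters for 35 of the 44 members, with none available for Col1a1 and Col2a1 among others. In the 250 bases before the start, GGGCGG occurred on either strand in 22 of these 38 (57.9%) against 32.7% of all 32851 promoters, CCAAT in 13 (34.2%) against 33.8%, and TATAAA in 5 (13.2%) against 12.4%. These matches are a description of the letters and were not tested. The same 250 bases had a median of 59% G or C in the collagen promoters against 52.4% in all promoters. Their median number of CG dinucleotides was 9.5 against 6, and the part of this base content in the GGGCGG matches was not tested.

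The delivered gene was examined first. In Ad-sham aortas Fam3a had a lowest, median and highest level of 17.9, 24.9 and 30.3 CPM (counts scaled to the library size after TMM normalization), and in Ad-FAM3A aortas of 18.6, 23.0 and 29.8 CPM. The groups overlapped (log2 fold change -0.03 ± 0.16, SE, edgeR adjusted p = 0.971), so the groups are named by their labels. Total counts ranged from 14481179 to 19797407 per aorta, and a gene with 0 counts may still have had up to 3 counts, or 0.152 to 0.207 CPM. That bound covers counting error only. The aortas differed in tissue content: smooth muscle markers summed to between 2230 and 18040 CPM, with the lowest sums in Ad-FAM3A6 and Ad-sham1 (2912 CPM), and B cell markers reached 536 CPM in Ad-FAM3A6, with 207 CPM measured in Ad-FAM3A7 and at most 38.8 CPM in the other 11 aortas. Brown adipocyte markers summed to 521.5 to 3591 CPM in Ad-sham (median 1548) and 576 to 2850 CPM in Ad-FAM3A aortas (median 925). In whole tissue, fewer cells of a type and less RNA per cell cannot be told apart.

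The question put to the collagen genes was whether their transcript levels differed between Ad-FAM3A and Ad-sham aortas. No collagen gene passed an adjusted p of 0.05 with a change of over 1 on the log2 scale when tested by edgeR, against 0 of all 15811 genes tested (0%). DESeq2 and limma-voom also called 0 collagen genes, while DESeq2 called 9 genes of all. At an unadjusted p under 0.05, 2 of the 36 tested collagen genes passed by edgeR (Col2a1, higher, and Col27a1, lower), which is 5.56% against a background of 5.91% of all genes tested. The smallest adjusted p of a collagen gene was 0.810, and no collagen gene had groups that did not overlap, against 15 of the 15811 genes tested (0.0949%).

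Fold changes were spread on both sides of 0. Of the 36 genes, 16 had a higher and 20 a lower fitted level in the Ad-FAM3A group, with a median log2 fold change of -0.04 against 0.0032 over all genes tested. The median size of the log2 fold change was 0.31, against 0.20 over all genes. By class, 3 of 10 fibrillar genes were on the higher side (median log2 fold change -0.25), 3 of 6 basement membrane genes (median -0.01), 3 of 6 beaded filament genes (median 0.0043) and 7 of 14 others (median -0.15). A single aorta moved the median of the 36: it was 0.13 without Ad-sham5, 0.06 without Ad-FAM3A6, 0.04 without Ad-FAM3A2 and -0.14 without Ad-sham1. With a marker score as a covariate, both added after seeing the data, 8 genes were on the higher and 28 on the lower side (smooth muscle score, median -0.23), or 10 and 26 (brown adipocyte score, median -0.24). The class counts moved as well. All 6 basement membrane genes were on the higher side without Ad-sham5 (median 0.23) or without Ad-FAM3A6 (median 0.14) and 0 of the 6 with the smooth muscle score, and 5 of the 10 fibrillar genes were on the higher side without Ad-sham5 (median -0.03). For beaded filament genes the count ran from 1 to 4 of 6 over the settings tried. It was 1 without Ad-FAM3A4 (median -0.09) and with the smooth muscle score (median -0.21).

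**Figure D1:**
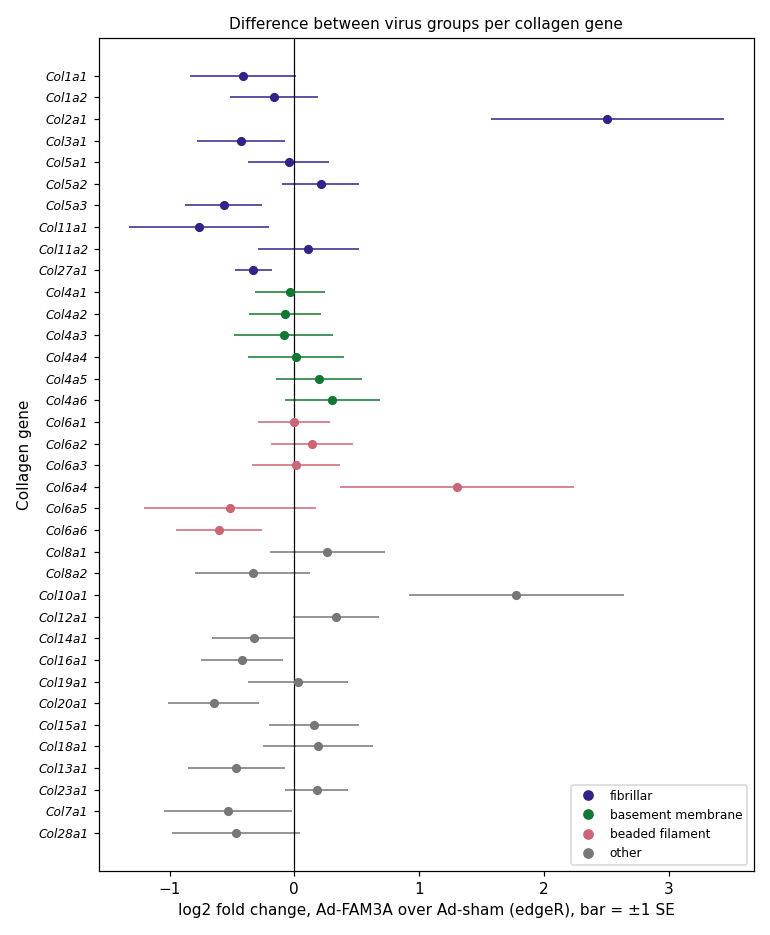
Log2 fold change of the Ad-FAM3A over the Ad-sham group for each of the 36 tested collagen genes (horizontal axis, edgeR, bars are 1 SE), ordered and coloured by class. The 16 genes right of 0 and the 20 left of 0 lie mostly within 1 or 2 SE of it, the 6 basement membrane genes run from -0.09 to 0.30, and Col2a1, Col10a1 and Col6a4 lie farthest to the right with the widest bars.

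Collagen transcripts made up between 0.502% and 2.63% of all counts of an aorta. The lowest, median and highest shares were 0.877%, 1.22% and 2.63% in the Ad-sham group and 0.502%, 1.46% and 1.64% in the Ad-FAM3A group, and the groups overlapped. Fibrillar chains took the largest part, with medians of 0.809% and 0.720% of counts, followed by basement membrane chains with 0.212% and 0.241%, other types with 0.166% and 0.206%, and beaded filament chains with 0.110% and 0.131%. The extremes were shared by all 4 classes: Ad-sham5 had the highest and Ad-FAM3A6 the lowest share in each. Among the 15 collagen genes with the highest level per length, Ad-FAM3A6 was the lowest aorta for 14 and Ad-sham5 the highest for 8.

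**Figure D2:**
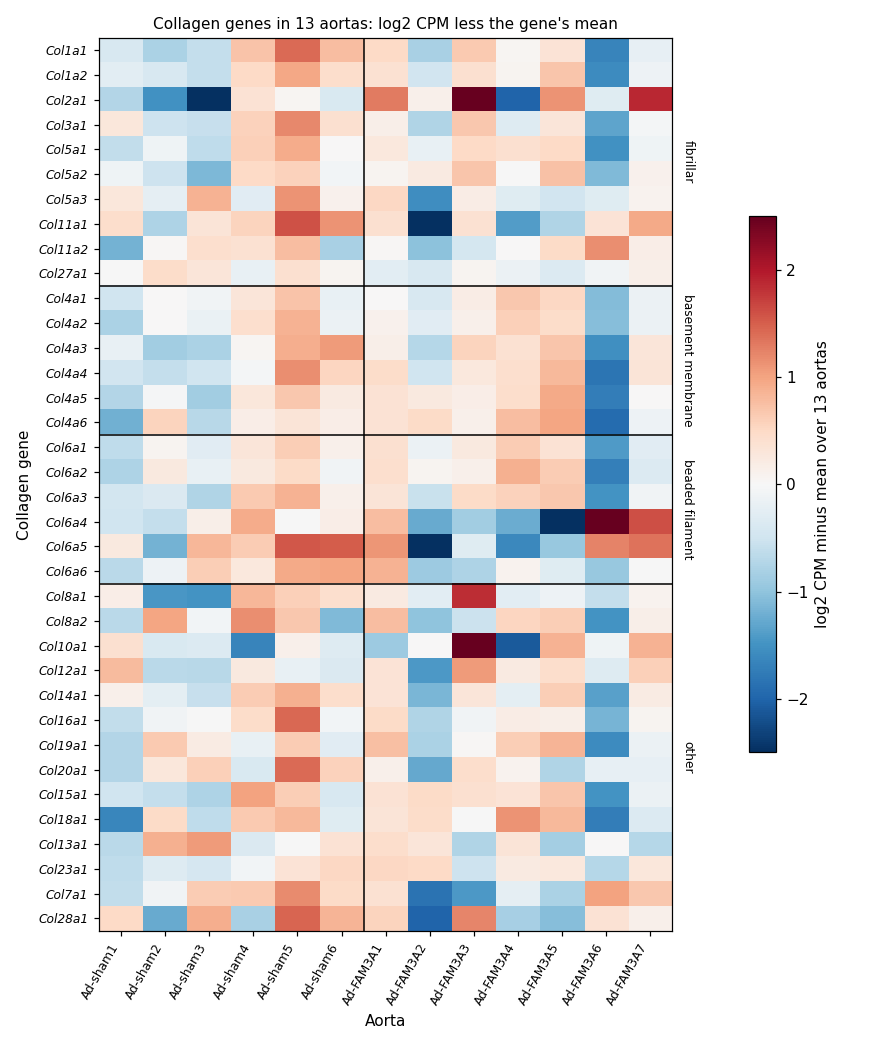
Log2 CPM of the 36 tested collagen genes (rows, by class) in the 6 Ad-sham and 7 Ad-FAM3A aortas (columns), less each gene's mean over the 13 aortas, with red above and blue below the mean. Ad-sham5 is red and Ad-FAM3A6 blue for most rows of all classes, whereas Col2a1, Col10a1 and Col8a1 stand out in Ad-FAM3A3 and Col6a4 in Ad-FAM3A6.

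Divided by gene length, the most abundant collagen transcripts were Col1a1 with a median of 289 CPM per kb over the 13 aortas, Col3a1 with 272, Col1a2 with 181, Col18a1 with 162, Col4a1 with 159 and Col4a2 with 113. Col6a1 (84.7 CPM per kb), Col15a1 (57.0), Col6a2 (47.9) and Col14a1 (47.6) completed the 10 highest. The ranges over aortas were several times wider than the steps between neighbours in this order, so that Col1a1 and Col3a1, or Col1a2, Col18a1 and Col4a1, did not differ beyond their spread. The deposited FPKM, which the authors give as 1 mean per group, put Col1a1 at 371 (Ad-sham) and 281 (Ad-FAM3A), Col3a1 at 310 and 233, Col4a1 at 167 and 165, and Col18a1 at 138 and 160.

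**Figure D3:**
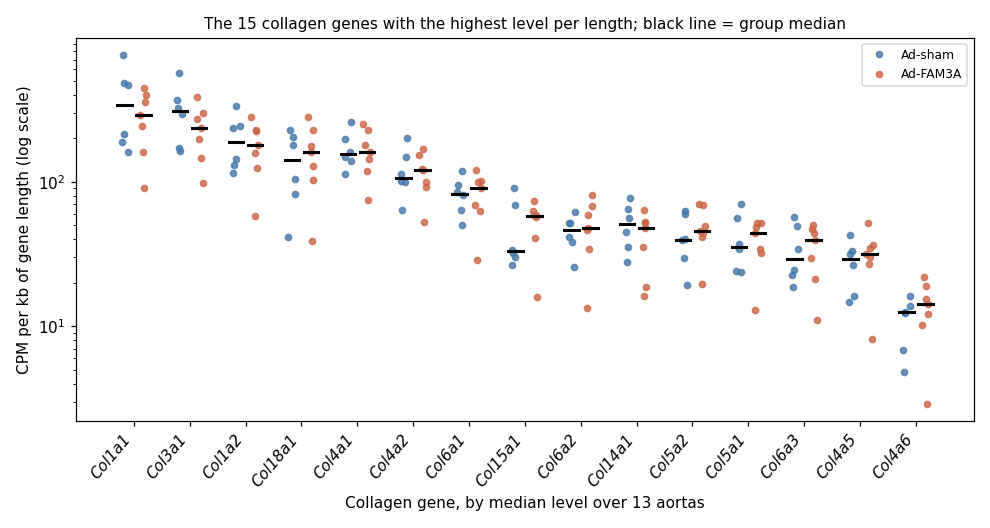
CPM per kb of gene length (log scale) of the 15 collagen genes with the highest median level, with 1 point per aorta and a black line at the median of each group. For every gene the points of the 6 Ad-sham and the 7 Ad-FAM3A aortas overlap, and the spread within a group exceeds the distance between the 2 medians.

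Types I and III are the fibril-forming collagens that give the vessel wall its tensile strength. Col1a1 (chromosome 11, 94936224 to 94953042), the pro-alpha1 chain of type I, had a lowest, median and highest level of 1057, 2220 and 4929 CPM in Ad-sham and of 591, 1899 and 2901 CPM in Ad-FAM3A aortas. Its log2 fold change was -0.41 ± 0.43 (SE, edgeR adjusted p = 0.854, exact permutation p = 0.478), and -0.10 without Ad-sham5. Ad-sham5 was the highest and Ad-FAM3A6 the lowest aorta, and the groups overlapped between 1057 and 2901 CPM, with 3 of the 6 Ad-sham aortas above every Ad-FAM3A aorta.

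Col1a2 (chromosome 6, 4504814 to 4541544), the partner chain of type I, ranged from 1422 to 4182 CPM around a median of 2349 in Ad-sham and from 723 to 3487 CPM around 2246 in Ad-FAM3A aortas (log2 fold change -0.16 ± 0.35, SE). Col3a1 (chromosome 1, 45311538 to 45349706), which forms the homotrimers of type III, ranged from 1606 to 5526 CPM around 3039 in Ad-sham and from 967 to 3813 CPM around 2318 in Ad-FAM3A aortas. Its log2 fold change was -0.43 ± 0.35 (SE, edgeR adjusted p = 0.832, exact permutation p = 0.291). This was -0.19 without Ad-sham5 and -0.74 with the brown adipocyte score as a covariate. Of the 7 Ad-FAM3A aortas, 6 lay below the Ad-sham median. Both groups again overlapped, with Ad-sham5 at the top and Ad-FAM3A6 at the bottom of each gene.

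Type V collagen is built into type I fibrils and limits their diameter. Col5a1 ranged from 201 to 591 CPM in Ad-sham and from 110 to 440 CPM in Ad-FAM3A aortas, with medians of 302 and 376 CPM. Col5a2 ranged from 185 to 606 CPM and from 188 to 676 CPM, with medians of 382 and 435 CPM. The log2 fold changes of this pair were -0.05 ± 0.33 and 0.21 ± 0.31 (SE). Col5a3, a chain of lower level that also occurs in nerve, had medians of 36.5 CPM in Ad-sham and 25.7 CPM in Ad-FAM3A aortas (range 26.0 to 69.0 and 10.7 to 45.2 CPM, log2 fold change -0.57 ± 0.31, edgeR adjusted p = 0.810).

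The 2 collagen genes with an unadjusted p under 0.05 were both fibrillar. Col27a1, a fibrillar chain known from cartilage and developing tissues, had levels of 17.1, 23.6, 21.3, 15.01, 22.8 and 18.1 CPM in Ad-sham1 to Ad-sham6 and of 14.3, 12.97, 18.0, 15.4, 13.6, 16.1 and 19.1 CPM in Ad-FAM3A1 to Ad-FAM3A7. The Ad-FAM3A values lay in the lower part of the joint range and overlapped the Ad-sham values between 15.01 and 19.1 CPM. Its log2 fold change was -0.33 ± 0.15 (SE, exact permutation p = 0.0350, edgeR adjusted p = 0.810). The unadjusted p of edgeR was no longer under 0.05 when Ad-sham2, Ad-sham3, Ad-sham5, Ad-FAM3A1, Ad-FAM3A2, Ad-FAM3A4 or Ad-FAM3A5 was left out, nor with DESeq2's size factors, library totals, no filter, the brown adipocyte score or the replicate block.

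Col2a1, the chain of cartilage type II collagen, had levels of 0.926, 0.485, 0, 2.12, 1.68 and 1.22 CPM in Ad-sham1 to Ad-sham6. In Ad-FAM3A1 to Ad-FAM3A7 it had 4.14, 1.78, 25.6, 0.314, 3.68, 1.28 and 6.32 CPM. A single aorta, Ad-FAM3A3, carried 363 of the 756 Col2a1 counts (48.0%), and Ad-FAM3A4 lay below 5 of the 6 Ad-sham aortas. The log2 fold change was 2.51 ± 0.93 (SE, exact permutation p = 0.0763, edgeR adjusted p = 0.810), and 1.46 without Ad-FAM3A3. The 7 cartilage markers summed to 130.5 CPM in that aorta, below Ad-sham4 (212 CPM) and Ad-FAM3A5 (177 CPM), and their mean log2 CPM was 1.70 against 0.44 to 1.64 in the other 12. Kidney, sympathetic neuron and bone markers had their highest sums of the 13 aortas there (197, 1160 and 3.17 CPM), and the part of other tissue in the Col2a1 value was not tested.

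Col10a1, the collagen of hypertrophic cartilage, had the same peak, with 9.17 CPM in Ad-FAM3A3 against 0.0627 to 1.33 CPM in the other 12 aortas (log2 fold change 1.78 ± 0.86, exact permutation p = 0.435, and 0.39 without Ad-FAM3A3). Col9a1, a cartilage chain that the filter on low counts removed, reached 1.199 CPM in Ad-FAM3A3 and at most 0.234 CPM elsewhere. The other low fibrillar chains did not share this peak. Col11a1 ranged from 1.52 to 8.37 CPM in Ad-sham and from 0.184 to 5.33 CPM in Ad-FAM3A aortas (log2 fold change -0.76 ± 0.56), and Col11a2 from 0.926 to 3.93 and from 1.05 to 5.20 CPM (0.11 ± 0.40). The value of Col11a1 was -0.49 without Ad-sham5 and -1.015 without Ad-FAM3A7. Col24a1 had 0 to 15 counts per aorta and was not tested.

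The type IV chains of the basement membrane had log2 fold changes from -0.09 to 0.30, of which those of Col4a5 and Col4a6 were the largest. Col4a1 (chromosome 8, 11198423 to 11312826), a chain of the ubiquitous type IV network, had lowest, median and highest levels of 842, 1153 and 1938 CPM in Ad-sham and of 555, 1189 and 1882 CPM in Ad-FAM3A aortas. Its partner Col4a2 had 425, 707 and 1339 CPM in Ad-sham and 351, 794 and 1113 CPM in Ad-FAM3A aortas. The groups overlapped, with log2 fold changes of -0.04 ± 0.28 and -0.07 ± 0.29 (SE, edgeR adjusted p = 0.980 and 0.959).

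Col4a3 and Col4a4, chains of the specialized network of kidney glomerulus and lung, were low. Col4a3 had medians of 12.6 CPM (range 7.15 to 27.6) in Ad-sham and 16.4 CPM (4.46 to 21.5) in Ad-FAM3A aortas, and Col4a4 of 18.4 CPM (14.5 to 49.0) and 27.5 CPM (6.11 to 38.9). Their log2 fold changes were -0.09 ± 0.40 and 0.01 ± 0.38 (SE). Of the exon bases of Col4a3, 5.65% overlap C430014B12Rik, an antisense gene, and whether the counting used strand is not given in the sources used here.

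Col4a5 and Col4a6 are the X-linked chains of the type IV network found around smooth muscle. Col4a5 had lowest, median and highest levels of 99.5, 195 and 288 CPM in Ad-sham and of 55.0, 214 and 349 CPM in Ad-FAM3A aortas, with a log2 fold change of 0.20 ± 0.34 (SE). Col4a6 had 38.4, 99.5 and 130 CPM in Ad-sham and 23.2, 114 and 176 CPM in Ad-FAM3A aortas, with a log2 fold change of 0.30 ± 0.38 (SE). For both genes Ad-FAM3A6 was the lowest and Ad-FAM3A5 the highest of the 13 aortas. These aortas also had different levels of smooth muscle markers, whose part in the Col4a5 and Col4a6 values was not tested. The same fit with the smooth muscle score as a covariate gave -0.07 for Col4a5 and -0.02 for Col4a6. Leaving out 1 aorta at a time gave 0.04 (without Ad-FAM3A5) to 0.37 (without Ad-FAM3A6) for Col4a5. For Col4a6 it gave 0.14 (without Ad-sham1) to 0.49 (without Ad-FAM3A6).

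The beaded filament chains of type VI fell into an abundant and a scarce set. Col6a1, Col6a2 and Col6a3, which together form the standard type VI molecule, had Ad-sham medians of 362, 388 and 351 CPM and Ad-FAM3A medians of 400, 399 and 474 CPM. Their log2 fold changes were -0.0020 ± 0.29, 0.14 ± 0.33 and 0.01 ± 0.35 (SE). The 13 aortas spanned 127 to 525 CPM for Col6a1, 112 to 672 CPM for Col6a2 and 133 to 686 CPM for Col6a3, with Ad-FAM3A6 lowest in each.

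Col6a4, Col6a5 and Col6a6 encode alternatives to the alpha3 chain and lie in 1 cluster on chromosome 9, all in the same direction. Col6a4 peaked in Ad-FAM3A6 at 7.77 CPM, followed by Ad-FAM3A7 at 2.15 CPM, against 0 to 1.28 CPM in the other 11 aortas, which gave a log2 fold change of 1.31 ± 0.94 (SE) that was -0.02 without Ad-FAM3A6 and -0.88 without both. Ad-FAM3A6 and Ad-FAM3A7 were also the aortas with the most B cell marker counts, and the part of lymphoid cells in the Col6a4 value was not tested. Col6a5 spanned 0.246 to 22.9 CPM, and Col6a6 had medians of 13.2 CPM in Ad-sham and 7.80 CPM in Ad-FAM3A aortas (range 5.95 to 19.3 and 4.95 to 17.6 CPM). The log2 fold changes of these were -0.51 ± 0.69 and -0.60 ± 0.35 (SE), and the groups overlapped.

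Col18a1 and Col15a1 are the multiplexins, basement membrane collagens whose cleaved ends include the angiogenesis inhibitor endostatin and a related fragment. Col18a1 (chromosome 10, 77052178 to 77166548) had lowest, median and highest levels of 293, 997 and 1596 CPM in Ad-sham and of 274, 1134 and 1985 CPM in Ad-FAM3A aortas. Col15a1 had 168, 209 and 575 CPM in Ad-sham and 102, 367 and 465 CPM in Ad-FAM3A aortas. The highest of the 13 aortas had 7.24 times the Col18a1 and 5.64 times the Col15a1 level of the lowest, and the log2 fold changes of 0.19 ± 0.44 and 0.16 ± 0.36 (SE) were smaller than their errors. Leaving out 1 aorta at a time gave 0.0051 (without Ad-sham1) to 0.39 (without Ad-sham5) for Col18a1 and 0.03 (without Ad-sham3) to 0.45 (without Ad-sham4) for Col15a1.

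Type VIII collagen forms hexagonal networks and is known from endothelium and from smooth muscle of injured vessels. Col8a1 had 249 CPM in Ad-FAM3A3 against 46.0 to 81.2 CPM in the other Ad-FAM3A aortas and 24.6 to 124 CPM in Ad-sham aortas. Its log2 fold change of 0.27 ± 0.46 (SE) was -0.22 without Ad-FAM3A3. Col8a2 was low throughout, with 1.48 to 7.57 CPM in Ad-sham and 1.10 to 5.76 CPM in Ad-FAM3A aortas (log2 fold change -0.33 ± 0.46). This value was -0.11 without Ad-sham4 and -0.51 without Ad-sham6.

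The fibril-associated collagens sit on the surface of fibrils. Col14a1, the most abundant of them, had medians of 355 CPM (range 197 to 540) in Ad-sham and 334 CPM (114 to 446) in Ad-FAM3A aortas. Col12a1, Col16a1, Col19a1 and Col20a1 had Ad-sham medians of 46.1, 36.7, 3.21 and 5.54 CPM and Ad-FAM3A medians of 70.4, 39.1, 3.25 and 3.49 CPM. The log2 fold changes of the 5 tested members ran from -0.64 ± 0.36 (Col20a1) to 0.33 ± 0.34 (Col12a1), with 2 on the higher and 3 on the lower side, or 1 and 4 when Ad-sham1, Ad-sham4, Ad-sham6, Ad-FAM3A1, Ad-FAM3A4 or Ad-FAM3A5 was left out. The value of Col12a1 was 0.16 without Ad-FAM3A3 and 0.59 without Ad-sham1, and that of Col20a1 was -0.34 without Ad-sham5. Col9a1, Col9a2, Col9a3 and Col22a1 did not pass the filter, with at most 33 counts in any aorta.

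The remaining collagens were scarce in these aortas. The transmembrane collagens Col13a1 and Col23a1 had Ad-sham medians of 1.19 and 11.1 CPM and Ad-FAM3A medians of 1.04 and 15.2 CPM (log2 fold changes -0.46 ± 0.39 and 0.18 ± 0.25). Col13a1 had -0.25 without Ad-sham3 and -0.63 without Ad-sham1, and Col23a1 had 0.09 without Ad-sham1 and 0.32 without Ad-sham6. Col7a1, the anchoring fibril collagen of skin, reached at most 2.38 CPM. Col17a1, a hemidesmosome collagen of epithelia, had 0 to 8 counts, Col25a1 0 to 9 and Col26a1 0 to 12, and none of these 3 was tested. Col28a1, a collagen known from peripheral nerve, had medians of 21.8 CPM (range 5.58 to 37.4) in Ad-sham and 14.8 CPM (3.26 to 31.5) in Ad-FAM3A aortas, with a log2 fold change of -0.47 ± 0.51 (SE). This value was -0.20 without Ad-sham5 and -0.76 without Ad-FAM3A3.

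Pairs of chains were then compared within each aorta, as the log2 ratio of their counts. Of the 9 pairs, 8 joined chains of the same collagen type, and the remaining one set Col3a1 of type III against Col1a1 of type I. None of the 9 ratios differed between the groups by the two-sided exact permutation test over all 1716 divisions of 6 and 7 aortas (adjusted p = 0.837 for each). The Col1a1 to Col1a2 log2 ratio was -0.14 ± 0.32 (SD, n = 6) in Ad-sham and -0.29 ± 0.22 (SD, n = 7) in Ad-FAM3A aortas. That of Col4a1 to Col4a2 was 0.69 ± 0.16 and 0.68 ± 0.08 (SD). Of the 9 log2 ratios, that of this head-to-head pair had the smallest SD over the 13 aortas (0.12), and its difference between groups was -0.02.

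Per length, Col1a1 was 1.24 to 2.23 times Col1a2 over the 13 aortas (median 1.601), and Col4a1 was 1.28 to 1.76 times Col4a2 (median 1.42). Col3a1 was 0.670 to 1.40 times Col1a1, Col4a3 was 0.519 to 0.927 times Col4a4, and Col4a5 was 1.62 to 3.39 times Col4a6. In type V and type VI, Col5a1 was 0.613 to 1.22 times Col5a2, Col6a1 was 1.46 to 2.16 times Col6a2, and Col6a3 was 0.295 to 0.518 times Col6a1. Type VIII stood apart, with Col8a1 2.15 to 62.3 times Col8a2. The largest group differences in log2 ratio were 0.60 for Col8a1 to Col8a2 (exact permutation p = 0.429) and -0.28 for Col5a1 to Col5a2 (exact permutation p = 0.166). The first of these was 0.17 without Ad-sham2 and 0.98 without Ad-sham6.

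Across the 13 aortas, most partner chains moved together on the log2 CPM scale. Pearson's r was 0.96 for Col1a1 with Col1a2 (permutation p = 1e-05, the smallest that 100000 permutations can give), and Spearman's rho was 0.92 (permutation p = 4e-05). For Col4a1 with Col4a2, r was 0.98 and rho 0.97 (permutation p = 1e-05 for each). For Col4a3 with Col4a4, r was 0.94 and rho 0.93 (permutation p = 1e-05 and 4e-05), and for Col4a5 with Col4a6 r was 0.94 and rho 0.77 (permutation p = 6e-05 and 0.00315). The last pair was added after the values had been seen.

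The relations held within the groups and without the extreme aortas. Within Ad-sham and Ad-FAM3A aortas, r was 0.98 and 0.96 for the type I pair, 0.99 and 0.99 for Col4a1 with Col4a2, 0.91 and 0.97 for Col4a3 with Col4a4 and 0.83 and 0.99 for Col4a5 with Col4a6. Without the 2 aortas farthest from the median of the first chain, r was 0.93, 0.95, 0.89 and 0.86 for these pairs. Col6a1 with Col6a2 (r = 0.97, rho = 0.96), Col3a1 with Col1a1 (0.94 and 0.92), Col6a3 with Col6a1 (0.92 and 0.86) and Col5a1 with Col5a2 (0.84 and 0.79) had adjusted p-values of r of at most 0.000281 by permutation. Col8a1 with Col8a2 showed no relation that these aortas could resolve (r = -0.04, permutation p = 0.890, rho = 0.15, permutation p = 0.619).

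**Figure D4:**
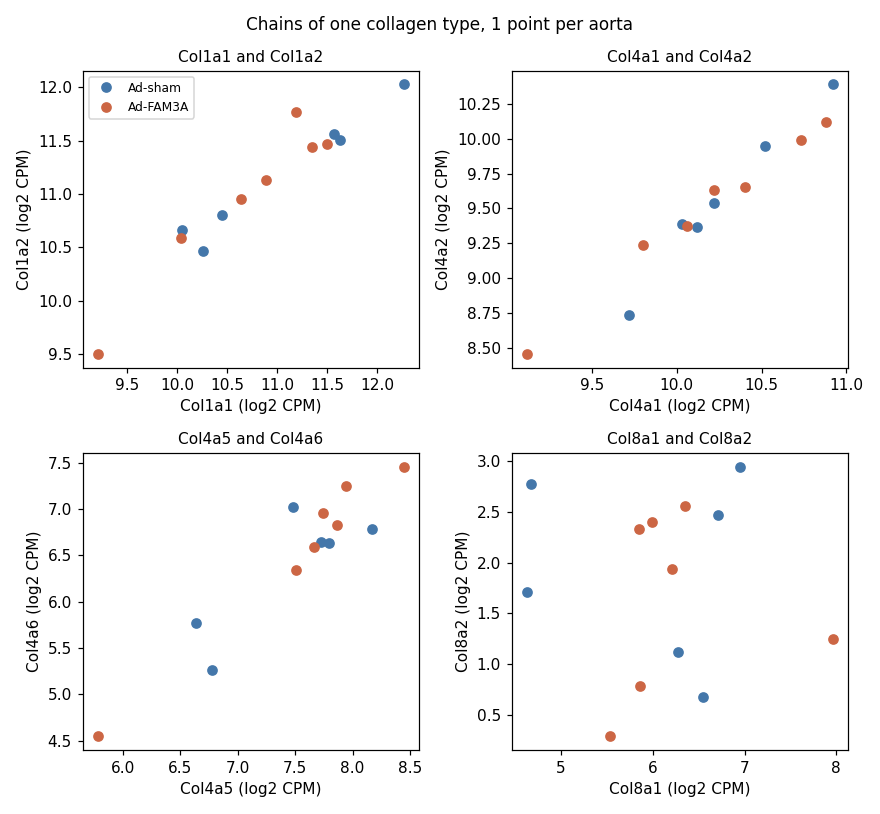
Log2 CPM of the chains of 4 pairs, with 1 point per aorta (6 Ad-sham, 7 Ad-FAM3A). The points of Col1a1 and Col1a2 (r = 0.96), Col4a1 and Col4a2 (r = 0.98) and Col4a5 and Col4a6 (r = 0.94) follow a line on which the groups mix, whereas those of Col8a1 and Col8a2 (r = -0.04) scatter.

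These pairs stand within a wider co-variation of collagen transcripts, which share libraries and the tissue content of each aorta. Over all 630 pairs of the 36 tested genes the median r was 0.36 (quartiles -0.0046 and 0.68), and 35 pairs had an r above 0.9. Of the 9 chain pairs, 7 were above 0.9, with a median of 0.94. In the cluster on chromosome 9, where Col6a4 had 0 to 37 counts in all aortas but Ad-FAM3A6, r was 0.54 for Col6a6 with Col6a5, 0.62 for Col6a5 with Col6a4 and 0.06 for Col6a6 with Col6a4. Col3a1 and Col5a2, which lie tail to tail on chromosome 1, had an r of 0.77. These last values are given as a description.

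Each of the 36 genes was also set beside the mean log2 CPM of 16 lists of cell type markers over the 13 aortas, 576 relations in all. After Benjamini-Hochberg adjustment, 43 relations had an adjusted p of r under 0.05, and in 14 of these the adjusted p of rho was under 0.05 too. Fibroblast markers accounted for 13 of the 43, all positive, smooth muscle markers for 9 positive ones, cardiac muscle markers for 9 negative ones and cartilage markers for 7 positive ones. The remaining 5 were Col1a1 and Col6a6 with endothelial markers (r = 0.74 and 0.76), Col6a4 with B cell and T cell markers (r = 0.84 and 0.88) and Col28a1 with sympathetic neuron markers (r = 0.81). The Col6a4 relations did not pass by rho (permutation adjusted p = 0.0785 and 0.0705), and without the 2 most extreme aortas r was 0.53 for B cell and 0.80 for T cell markers. For Col28a1, rho was 0.88, r was 0.90 without the 2 most extreme aortas, and the neuron markers summed to between 0.577 and 1160 CPM. With cartilage markers, Col1a1, Col1a2 and Col5a1 passed by rho too (permutation adjusted p = 0.0472 for each), and Col4a3 did not (0.0705). With cardiac muscle markers, Col1a1, Col1a2, Col5a1 and Col4a2 did not pass by rho (permutation adjusted p = 0.142 to 0.211). Without the 2 most extreme aortas their r ran from -0.72 to -0.37. Cardiac muscle markers summed to 168 CPM in Ad-sham1 and 129 CPM in Ad-FAM3A6, against at most 49.5 CPM elsewhere.

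The 13 collagen genes whose r with fibroblast markers passed were 4 of the 10 tested fibrillar genes (Col1a1, Col1a2, Col3a1 and Col5a1), 5 of the 6 basement membrane genes, 2 beaded filament genes and 2 fibril-associated ones (markers Pdgfra, Dpt, Pi16, Mfap5, Clec3b, Lum and Dcn). For Col1a2, r was 0.95 and rho 0.92 (permutation p = 1e-05 and 3e-05, adjusted p = 0.00096 and 0.00576), and r was 0.89 without the 2 aortas of most extreme marker level. Col14a1 (r = 0.92, rho = 0.91) and Col6a3 (r = 0.90, rho = 0.85) also passed by both measures, as did Col1a1, Col3a1 and Col5a1. The other 7, which include the 5 basement membrane genes and Col6a1, did not pass by rho (permutation adjusted p = 0.0688 to 0.143), and their r without the 2 most extreme aortas ran from 0.52 to 0.83. The fibroblast markers summed to 1800 to 3469 CPM in Ad-sham and 1236 to 3281 CPM in Ad-FAM3A aortas.

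Of the 9 genes whose r with smooth muscle markers passed (Myh11, Acta2, Cnn1, Tagln, Smtn, Des and Lmod1), 5 were also among the 13 of the fibroblast markers, namely Col5a1, Col4a1, Col4a2, Col4a5 and Col6a1. For Col18a1, r was 0.96 and rho 0.87 (permutation p = 1e-05 and 0.00028), for Col4a6 r was 0.95 and rho 0.95 (permutation p = 1e-05 and 2e-05) and for Col6a2 r was 0.94 and rho 0.91 (permutation p = 1e-05 and 9e-05). Without the 2 most extreme aortas r was 0.89, 0.85 and 0.88, and within the groups it was 0.93 to 0.99 for the 3 genes. The other 6 did not pass by rho (permutation adjusted p = 0.0586 to 0.247), and without the 2 most extreme aortas their r fell to between 0.40 and 0.65, so that these relations rest on few aortas. The smooth muscle markers summed to 2912 to 12710 CPM in Ad-sham and 2230 to 18040 CPM in Ad-FAM3A aortas. Whether a relation reflects more cells or more RNA per cell was not tested.

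**Figure D5:**
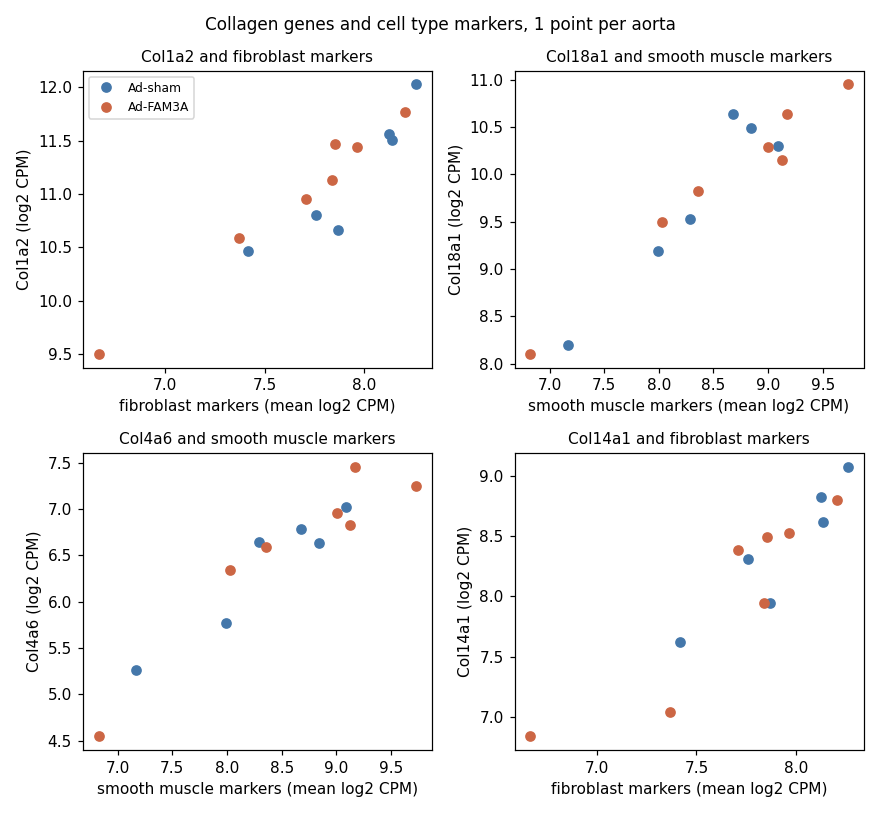
Log2 CPM of 4 collagen genes (vertical axes) against the mean log2 CPM of a list of cell type markers (horizontal axes), with 1 point per aorta. Col1a2 and Col14a1 rise with fibroblast markers (r = 0.95 and 0.92) and Col18a1 and Col4a6 with smooth muscle markers (r = 0.96 and 0.95), and Ad-sham and Ad-FAM3A points mix along each line.

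Genes that process, bind or degrade collagen were counted from 7 lists with 71 tested genes. By edgeR 0 of the 71 were called, and 1 (1.41%, against 5.91% of all genes) had an unadjusted p under 0.05. This was Lamb1, the laminin beta1 chain of the basement membrane, whose mean level was 157 ± 36.7 CPM in the 6 Ad-sham aortas and 115 ± 27.9 CPM (SD) in the 7 Ad-FAM3A aortas (log2 fold change -0.44 ± 0.19, SE, exact permutation p = 0.0344, edgeR adjusted p = 0.810).

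Of the 19 tested genes that modify and fold collagen chains, 17 had a higher fitted level in Ad-FAM3A aortas (median log2 fold change 0.11). This is 89.5%, against 50.4% of all genes tested, and none passed the test. The count of 17 ranged from 9 to 18 over the settings tried and was 10 without Ad-sham1. It was 9 with the smooth muscle score as a covariate (median -0.0055) and 18 without Ad-FAM3A6 and Ad-FAM3A7 (median 0.29). The prolyl 4-hydroxylase subunits, which hydroxylate proline so that the helix is stable, had log2 fold changes of 0.48 ± 0.24 (P4ha1), 0.52 ± 0.31 (P4ha2) and 0.54 ± 0.46 (P4ha3, SE) for the alpha subunits and 0.16 ± 0.19 (SE) for the beta subunit P4hb. The collagen chaperone Serpinh1 had 686 ± 189 CPM in Ad-sham and 700 ± 264 CPM in Ad-FAM3A aortas (SD). The cross-linking enzyme Lox had 344 ± 176 and 474 ± 180 CPM (SD), a log2 fold change of 0.46 ± 0.36 (SE).

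In the other lists the counts were 2 of 8 on the higher side for propeptide removal, 4 of 5 for cross-linking, 5 of 10 for fibril-binding proteoglycans and matrix proteins, 6 of 14 for basement membrane partners, 6 of 9 for collagen receptors and 2 of 6 for collagen-cleaving proteases. Over the settings tried these counts ran from 1 to 3, 2 to 5, 3 to 8, 3 to 9, 3 to 7 and 0 to 3 in that order. Single aortas moved them: without Ad-sham1 there were 3 for fibril-binding proteins and 3 for receptors, without Ad-sham5 8 and without Ad-FAM3A5 3 for fibril-binding proteins, and without Ad-FAM3A3 1 for proteases. The count for propeptide removal was 1 without Ad-sham2, Ad-sham6 or Ad-FAM3A5. The most abundant genes of their lists were Fn1 (fibronectin) with 5193 ± 3495 and 5076 ± 1914 CPM (SD) in Ad-sham and Ad-FAM3A aortas, Itgb1 (integrin beta1) with 1369 ± 403 and 1743 ± 619, Hspg2 (perlecan) with 1162 ± 499.8 and 1174 ± 469.7 and the gelatinase Mmp2 with 236 ± 120.2 and 179 ± 71.7. For propeptide removal this was Adamts2, which removes procollagen ends, with 283 ± 113 CPM (SD) in Ad-sham aortas and a log2 fold change of -0.18 ± 0.33 (SE). The largest log2 fold changes were 0.41 ± 0.41 for Ogn (osteoglycin), -0.50 ± 0.30 for Nid2 (nidogen 2), 0.55 ± 0.47 for the inhibitory collagen receptor Lair1 and -0.42 ± 0.94 for the protease Tll2 (SE). The gelatinase Mmp9 had the largest fold change of the proteases, with 12.01 ± 4.86 CPM in Ad-sham and 7.01 ± 4.56 CPM in Ad-FAM3A aortas (SD, log2 fold change -0.77 ± 0.38, SE, exact permutation p = 0.0460, edgeR adjusted p = 0.810).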

How the data were processed

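Aortic RNA of 13 mice was sequenced, 1 library per aorta. According to the study's methods, the authors used Hisat2 for alignment to GRCm38 and FeatureCounts for counting. The deposited values are whole-number counts per Ensembl gene without normalization, and a second deposited table gives FPKM, 1 group mean by the authors per virus group, with no spread. The annotation release, the strand setting and the treatment of reads shared by genes are not given in the sources used here. This leaves genes with overlapping exons uncertain, and 6 of the 44 collagen genes share more than 1% of their exon bases with another gene. Columns were mapped to samples by their labels, with 0 left unmapped.

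Counts were analysed in R 4.3.3 with edgeR 4.0.16 (TMM normalization, filterByExpr, quasi-likelihood test, Benjamini-Hochberg adjustment over 15811 genes). Calls required an adjusted p below 0.05 together with a change of over 1 on the log2 scale. The SE of a log2 fold change was taken as its size over the root of the F statistic. Log2 CPM used a prior count of 2, and ratios of chains added 0.5 to each count. Single genes and ratios were tested by exact permutation, two-sided, over 1716 divisions, whose smallest p is 0.000583, and correlations by 100000 permutations. Adjusted p-values cover the 9 pairs or the 576 marker relations. A further list of cell type markers is not reported here. DESeq2 1.42.0 and limma 3.58.1 (voom) were alternatives. Of the fits, only the edgeR fit without a covariate or block was tested on simulated data.

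Named are all collagen genes and, of the 7 pathway lists, genes with an unadjusted p under 0.05 or the largest level or fold change of their list. P4ha1, P4ha2 and P4hb were named after their values were seen. The members, lists and pairs were chosen with earlier results of these data known. The score covariates, the fit without Ad-FAM3A6 and Ad-FAM3A7, and DESeq2 on the genes kept by filterByExpr were added after seeing the data.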

Additional observations from a re-analysis of the deposited data

Results flagged for a closer look

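Samples that lay far from the rest of their group by Dixon's criterion were found in 6 of the 92 sets of values examined (collagen levels, chain ratios and the collagen share in each group), where chance gives about 4.6. In 5 of the 6, the aorta was Ad-FAM3A6, the lowest of its group. It had 6.78 log2 CPM of Col5a1 against 8.10 to 8.78 in the other 6 Ad-FAM3A aortas, 7.56 of Col5a2 against 8.65 to 9.40, 6.67 of Col15a1 against 8.01 to 8.86, 5.78 of Col4a5 against 7.51 to 8.45 and 4.55 of Col4a6 against 6.34 to 7.46. Smooth muscle markers summed to 2230 CPM in this aorta, the lowest of the 13, and B cell markers to 536 CPM, the highest, and their part in these values was not tested. The remaining one was Col8a1 in Ad-FAM3A3, with 7.96 log2 CPM against 5.53 to 6.35 in the other Ad-FAM3A aortas.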

How the results depend on the processing

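No setting called a collagen gene. Among all genes, DESeq2 called 9, or 3 on the genes kept by filterByExpr, and edgeR and limma-voom called 0. Collagen genes at an unadjusted p under 0.05 numbered 2 in the analysis reported, 1 with DESeq2's size factors, library totals, no filter, at least 10 counts in every aorta or limma-voom, 3 with DESeq2 on either set of genes (Col10a1 beside Col2a1 and Col27a1) or without Ad-FAM3A6 and Ad-FAM3A7 (Col7a1 beside both), 4 with the smooth muscle score as a covariate (Col10a1, Col27a1, Col2a1 and Col6a6, against 7.42% of all genes), 5 with the brown adipocyte score (Col3a1, Col11a1, Col14a1, Col16a1 and Col20a1, against 4.07%), and 1 to 4 when single aortas were left out. Col2a1 was no longer among them without Ad-FAM3A3, with limma-voom, the brown adipocyte score or the replicate block, nor with at least 10 counts in every aorta, a filter that removed it. Of all genes, 4.88% had an unadjusted p under 0.05 with DESeq2 and 7.41% with DESeq2 after edgeR's filter. The share was 6.27% without Ad-FAM3A6 and Ad-FAM3A7. With single aortas left out it ran from 3.07% (without Ad-sham3) to 8.60% (without Ad-FAM3A2). It was 7.1% without Ad-FAM3A1 and 6.22% without Ad-sham1, each with 4 collagen genes. In the processing settings with 1 collagen gene it ran from 4.44% (limma-voom) to 7.37% (no filter). The causes of the shifts in collagen counts were not tested.

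Of the 36 log2 fold changes, 18 kept their sign under every setting. Leaving out Ad-FAM3A6 and Ad-FAM3A7 gave 0.050 for Col1a2, 0.17 for Col5a1, -0.21 for Col11a2, 0.15 for Col4a1, 0.11 for Col4a2, 0.067 for Col4a3, 0.23 for Col6a1 and -0.88 for Col6a4. The smooth muscle score as a covariate gave -0.21 for Col4a4, -0.065 for Col4a5, -0.016 for Col4a6, -0.18 for Col6a2, -0.20 for Col6a3, -0.25 for Col19a1, -0.061 for Col15a1 and -0.10 for Col18a1. The brown adipocyte score gave -0.020 for Col5a2, -0.048 for Col11a2, -0.25 for Col4a4, -0.24 for Col6a3, -0.20 for Col8a1 and -0.000561 for Col19a1. Limma-voom gave -0.046 for Col4a4, -0.23 for Col6a4 and -0.13 for Col19a1. Col6a1 was 0.013 or 0.012 with DESeq2, its size factors or no filter. At least 10 counts in every aorta gave -0.011 for Col4a4 and -0.0052 for Col6a3, library totals -0.00850 and -0.0016, and upper quartile scaling -0.00135 for Col6a3.

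Leaving out 1 aorta at a time gave ranges of -0.29 to 0.046 for Col1a2, -0.16 to 0.17 for Col5a1, -0.15 to 0.32 for Col11a2, -0.16 to 0.12 for Col4a1, -0.20 to 0.13 for Col4a2, -0.23 to 0.16 for Col4a3, -0.12 to 0.33 for Col4a4, -0.11 to 0.15 for Col6a1, -0.0052 to 0.31 for Col6a2, -0.12 to 0.21 for Col6a3, -0.016 to 1.58 for Col6a4, -0.22 to 0.47 for Col8a1 and -0.12 to 0.20 for Col19a1. Differences in log2 ratio ranged from -0.15 to 0.059 for Col3a1 to Col1a1, -0.049 to 0.042 for Col4a1 to Col4a2, -0.095 to 0.070 for Col4a3 to Col4a4, -0.20 to 0.0079 for Col4a5 to Col4a6 and -0.042 to 0.12 for Col6a3 to Col6a1. The r of Col8a1 with Col8a2 ranged from -0.18 to 0.15, and the other 8 correlations kept their sign and side of 0.05.

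Equal replicate numbers did not mark pairs: the correlation of same-numbered aortas ran from -0.327 to 0.448 over the 6 numbers, and 1 number had its own partner as the closest. With the replicate number as a block, 3 collagen genes had an unadjusted p under 0.05 (Col5a3, Col6a5 and Col11a1, against 3.92% of all genes), 0 were called, and the log2 fold change was -0.011 for Col4a4, -0.46 for Col6a4 and -0.062 for Col19a1. None of the 9 chain ratios passed as paired differences (adjusted p = 0.906 by an exact sign-flip test). The depth allows up to 0.207 CPM for a count of 0.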
